A study of Caenorhabditis elegans with 2 samples.

Results

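The 4 genes described here are daf-12, din-1, daf-9 and daf-36, which encode the steroid hormone receptor of the Caenorhabditis elegans dauer decision, its co-repressor and a pair of enzymes that make its hormone. They are 4 of the 19973 protein-coding genes of the annotation. Every binding peak of the histone acetyltransferase LSY-12 was taken whose summit lay in the body of one of these genes or no more than 5000 bp to either side of its most 5′ start. This gave 9 of the 2095 peaks that passed the authors' reproducibility threshold. The genes were selected on the peaks they have in these lists and on their place in the pathway, so the numbers and signals of the peaks are a description and carry no test.

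Binding was measured by ChIP-seq, the sequencing of DNA recovered with a protein by an antibody, here one against GFP and chromatin of whole animals. All animals were of strain OP568, which carries the unc-119(tm4063) III mutation and the inserted transgene wgIs568, a copy of lsy-12 with GFP and FLAG at the C terminus of the protein. They were L3 larvae of mixed sex, collected 43 h after synchronization as L1 larvae starved after bleaching. This single group had 2 biological replicates, numbered 3 and 4. The labels do not give the promoter that drives the transgene. Neither untagged animals nor the control library that the labels name were analysed here, so the background of the antibody is unknown. All cell types were pooled, so a strong signal in few cells and a weak one in many cannot be told apart.

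In favourable conditions DAF-36, a Rieske-type oxygenase, starts the conversion of cholesterol to dafachronic acids, and DAF-9, a cytochrome P450, completes it. Dafachronic acids bind DAF-12, a nuclear hormone receptor, and the liganded receptor switches on genes of reproductive growth, among them microRNAs of the let-7 family that time the larval stages. Without hormone DAF-12 binds the co-repressor DIN-1, a homologue of the human protein SHARP (SPEN), and the pair directs entry into dauer, a long-lived arrested alternative to the L3 stage.

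The sequence under the peaks is given first, because 4 of the 9 summits, all at din-1, lay inside annotated non-coding RNA genes, against 13.8% of all 2095. Hexamers of DAF-12 response elements are also marked. In windows of 301 bp, AGTGCA was in 3 of the 9, against 13.4% of all 2095, and AGGACA in 2, against 11.0%. A peak is named by the distance of its summit from the most 5′ start of the gene in bp, in the direction of transcription, with a minus sign for upstream. Positions are in ce11 (WBcel235), count from 1, and the letters come from the RefSeq copy of that genome. Each sequence is centred on the summit, runs 5′ to 3′ on the strand of its gene and is in lower case except for the part named. At daf-12 (plus strand), the capitals in the first sequence mark AGTGCA, a hexamer of DAF-12 response elements, and those in the second mark TCTCTC, the reverse complement of GAGAGA.
daf-12 +1779, X:10637537-10637836, plus strand: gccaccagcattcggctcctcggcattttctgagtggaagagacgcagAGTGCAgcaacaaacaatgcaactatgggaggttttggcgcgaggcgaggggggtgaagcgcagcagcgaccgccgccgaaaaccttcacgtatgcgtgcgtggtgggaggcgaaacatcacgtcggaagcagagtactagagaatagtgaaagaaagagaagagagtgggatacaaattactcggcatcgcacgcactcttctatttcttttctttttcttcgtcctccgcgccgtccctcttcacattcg
daf-12 +11938, X:10647746-10647946, plus strand: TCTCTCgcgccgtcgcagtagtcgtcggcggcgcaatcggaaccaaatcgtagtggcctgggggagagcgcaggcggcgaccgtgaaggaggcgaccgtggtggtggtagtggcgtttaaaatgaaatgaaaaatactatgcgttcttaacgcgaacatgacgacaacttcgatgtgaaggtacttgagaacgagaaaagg

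At din-1 (minus strand), the capitals of the first of the sequences that follow mark AGGACA and AGTGCA, both hexamers of DAF-12 response elements, on the same strand with 40 bp between them. In known DAF-12 response elements such hexamers stand as direct repeats with a short spacer. The capitals of the second mark each GAGAGA on either strand, with 11 overlapping matches. In the third they mark ZK20.9, a snoRNA gene on the opposite strand, which is thus shown as its reverse complement. In the fourth they mark the part of ZK20.8, an ncRNA gene on the strand of din-1, that lies in the window. In the fifth they mark the part of F07A11.15, a snoRNA gene on the opposite strand, again as its reverse complement.
din-1 -3237, II:11636746-11636946, minus strand: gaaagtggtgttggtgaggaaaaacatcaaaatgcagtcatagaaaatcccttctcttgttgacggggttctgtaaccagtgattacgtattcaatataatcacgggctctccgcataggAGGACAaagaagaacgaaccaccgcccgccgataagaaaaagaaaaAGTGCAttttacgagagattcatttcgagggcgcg
din-1 -2301, II:11635810-11636010, minus strand: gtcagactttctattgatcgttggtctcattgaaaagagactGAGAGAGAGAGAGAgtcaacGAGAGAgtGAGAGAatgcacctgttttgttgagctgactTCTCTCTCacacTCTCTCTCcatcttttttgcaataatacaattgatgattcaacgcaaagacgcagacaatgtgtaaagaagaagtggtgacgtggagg
din-1 -1648, II:11635157-11635357, minus strand: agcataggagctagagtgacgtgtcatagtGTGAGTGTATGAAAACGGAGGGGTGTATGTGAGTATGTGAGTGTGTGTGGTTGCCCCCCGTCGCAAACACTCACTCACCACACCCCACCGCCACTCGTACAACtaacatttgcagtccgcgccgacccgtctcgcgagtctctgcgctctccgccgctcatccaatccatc
din-1 -720, II:11634229-11634429, minus strand: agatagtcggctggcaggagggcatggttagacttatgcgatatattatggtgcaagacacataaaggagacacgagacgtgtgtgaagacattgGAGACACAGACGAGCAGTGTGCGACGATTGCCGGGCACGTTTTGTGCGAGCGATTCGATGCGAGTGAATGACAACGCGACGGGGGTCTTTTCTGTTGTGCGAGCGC
din-1 +13346, II:11620163-11620363, minus strand: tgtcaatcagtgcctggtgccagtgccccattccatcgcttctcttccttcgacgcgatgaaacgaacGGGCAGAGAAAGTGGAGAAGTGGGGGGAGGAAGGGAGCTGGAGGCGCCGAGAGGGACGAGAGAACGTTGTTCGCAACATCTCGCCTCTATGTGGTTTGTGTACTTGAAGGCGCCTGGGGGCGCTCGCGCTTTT

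The peak at daf-9 (plus strand) lay beyond the gene's 3′ end, and the capitals mark TGTCCT, the reverse complement of AGGACA.
daf-9 +4752, X:6201579-6201779, plus strand: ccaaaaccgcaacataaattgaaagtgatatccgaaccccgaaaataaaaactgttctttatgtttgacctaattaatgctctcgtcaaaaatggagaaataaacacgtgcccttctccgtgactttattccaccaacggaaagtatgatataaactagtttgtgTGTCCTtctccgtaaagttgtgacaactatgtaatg

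Peaks were found at 3 of the 4 genes: din-1 had 6, daf-12 had 2, daf-9 had 1 and daf-36 had none. By the same rule 18.8% of all protein-coding genes had a peak, 3756 of 19973. Since the genes were selected on these peaks, nothing is read from the 2 shares. None of the 4 genes had a summit within 500 bp of its most 5′ start, where 5.26% of protein-coding genes had one. At least 6 peaks were found at 12 protein-coding genes (0.0601%), din-1 included, and at least 2 at 933 (4.67%), daf-12 included.

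**Figure D1:**
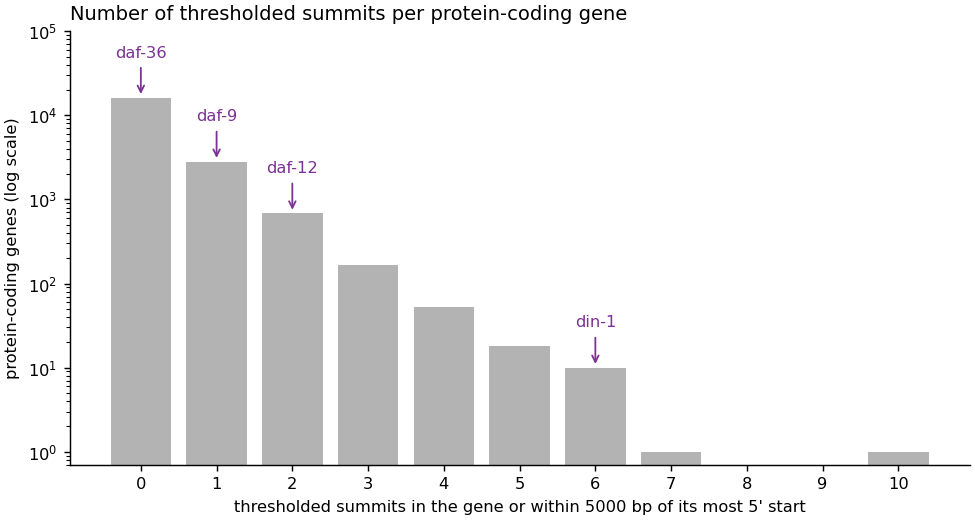
Number of protein-coding genes (y axis, log scale) by the number of thresholded summits in the gene or within 5000 bp of its most 5′ start (x axis), with arrows at the 4 genes. Most genes, 16217, had none, and din-1 stands with 6 among the 12 genes with 6 or more.

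Levels are given as relative signal, the authors' signal value of a region divided by the median signal of the 30000 candidate regions of the same list, so that 1 is the level of a middling candidate region. Each replicate has a list of its own, a pooled list covers both, and the 2095 thresholded peaks had relative signals of 2.13 or more in the pooled list. A replicate's value for a peak is its strongest region that overlaps the peak. The authors' signal is a value of each region on a scale that is not given in the sources used here, and it serves only to describe and rank regions within a list. Read depth is unknown from these lists, so the spread between the replicates is the one measure of precision.

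The receptor gene daf-12 (WBGene00000908) spans 30968 bp at X:10635908-10666875 on the plus strand and has 10 annotated transcripts from 9 starts. Its +1779 peak, X:10637482-10637891, was the strongest at any of the 4 genes and rank 236 of 2095 by signal. The relative signal was 5.33 in replicate 3 and 5.89 in replicate 4, or 5.61 ± 0.397 (SD, n = 2), and 6.15 in the pooled list. Both replicates were thus well above the weakest thresholded peak, and each placed the region among its own 300 strongest, at ranks 256 and 228. Replicate 3 had a second region under this peak, at 3.55, and replicate 4 had none. The authors' q-value was 0.000674.

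The +1779 summit lay in intron 1 of the longest transcript, F11A1.3e.3, and upstream of the other 9 transcripts, the nearest of which starts 8501 bp downstream of the first start. For those transcripts the summit is at -6722 bp or farther, so the peak is intronic for 1 transcript and distal upstream sequence for the rest. The AGTGCA printed for this window was its only match to either DAF-12 hexamer.

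The second daf-12 peak, +11938 at X:10647641-10648050, was weaker, rank 1293. The relative signal was 2.93 in replicate 3 and 1.98 in replicate 4, or 2.45 ± 0.675 (SD, n = 2), with 2.75 in the pooled list and an authors' q-value of 0.0120. The replicates differed more here than at the first peak, and replicate 4's region, at rank 2346, fell short of its own 2095 strongest. Its summit was also displaced, by 195 bp, against 29 bp in replicate 3. At the +1779 peak the replicate 3 summit was displaced, by 127 bp, against 11 bp in replicate 4. The +11938 summit lay 789 bp downstream of the start of F11A1.3e.4, in its intron 1, and in intron 2 of F11A1.3e.1, F11A1.3g.1 and F11A1.3a.1. The remaining 5 transcripts start at least 11493 bp farther along the gene.

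In the pooled list, the rest of the daf-12 gene, including the cluster of late starts, held weaker regions. Of the 19 pooled candidate regions of its window, the strongest below the threshold was at +14418 with a relative signal of 1.84, rank 2837, and the weakest stood at 0.880. The next thresholded summit outside the window lay 708 bp past the gene's 3′ end, at 2.75 and rank 1287, which is nearly the level of the +11938 peak, the weaker of the 2 thresholded ones in the window. Near +4928 the replicates were unlike, with a region of 2.47 in replicate 4 and of 0.923 in replicate 3. In replicate 4 that region was stronger than the one at the +11938 peak, 1.98.

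**Figure D2:**
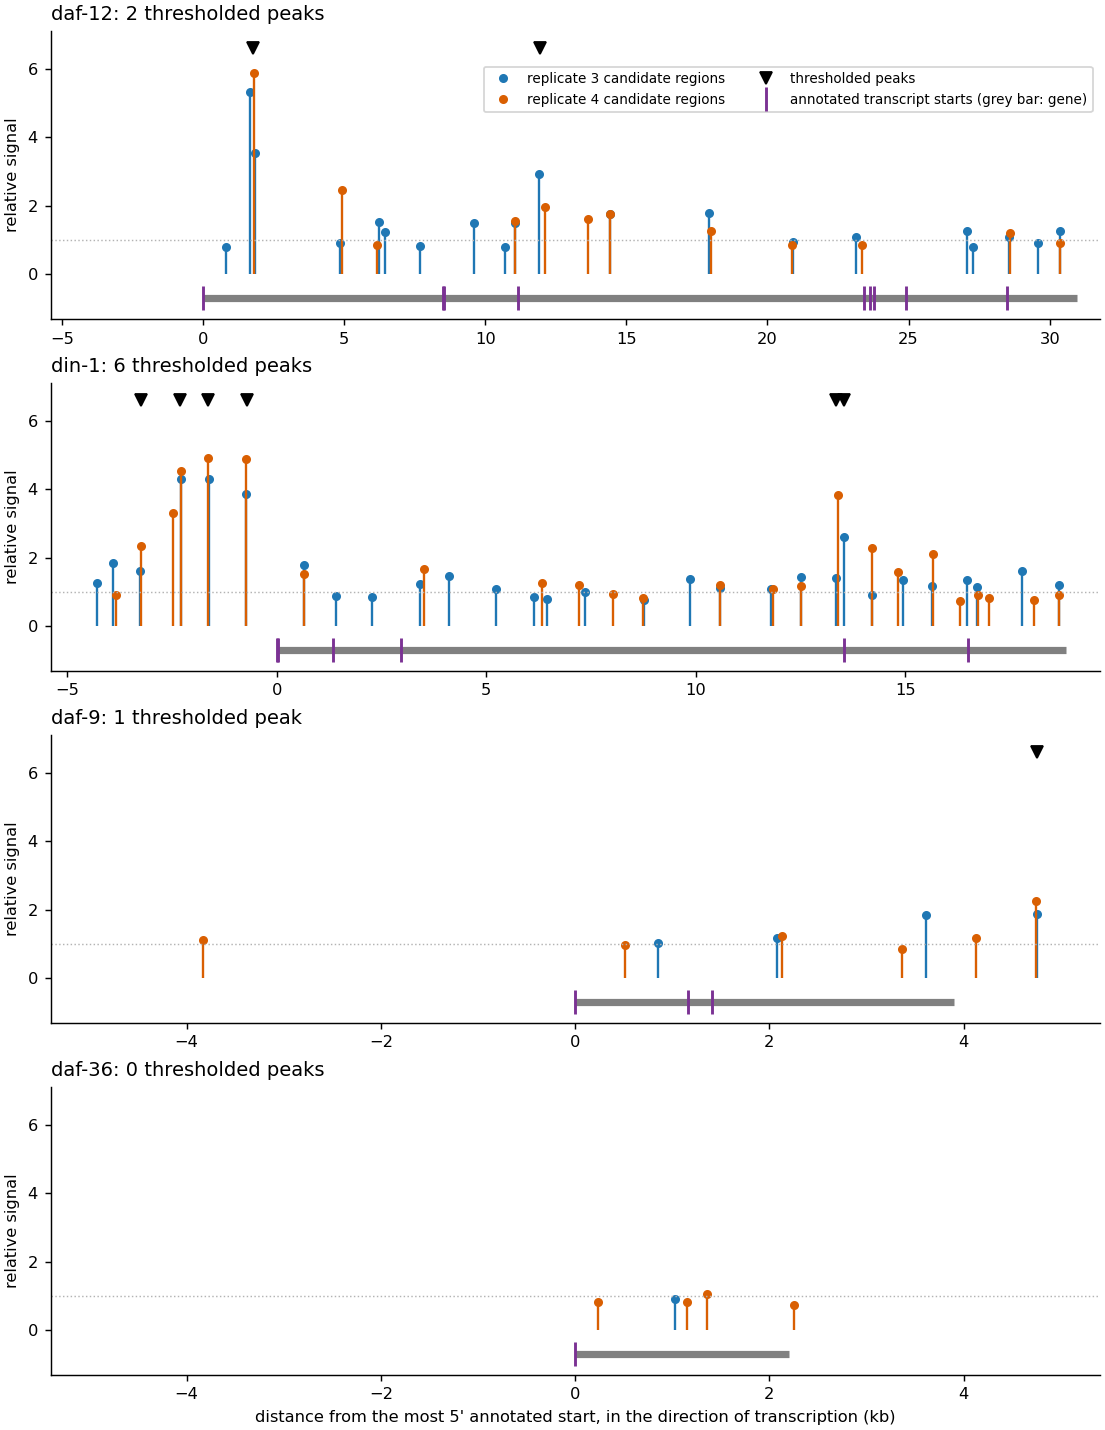
Relative signal (y axis) of all candidate regions of replicate 3 and replicate 4 by distance from the most 5′ start in kb (x axis) at the 4 genes, with triangles at thresholded summits, grey bars for the genes, purple ticks at transcript starts and a dotted line at 1. Both replicates are high at the first daf-12 peak, 5.33 and 5.89, and over 3 of the 4 upstream peaks of din-1, where the -3237 peak is lower at 1.63 and 2.36, while daf-36 stays at 1.05 or below.

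The co-repressor gene din-1 (WBGene00008549) spans 18840 bp at II:11614770-11633609 on the minus strand, with 7 transcripts from 6 starts. Its window had 2.52 thresholded peaks per 10 kb, against 0.209 over the genome. It also held 28 pooled candidate regions, or 11.7 per 10 kb, a density that 69 protein-coding genes (0.345%) reached, against a median gene of 3.00. The 6 peaks formed 2 groups, 4 upstream of the first start and 2 overlapping ones near an internal start.

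The upstream group ran from -3237 to -720, and its summits lay between 653 and 936 bp apart. The -720 peak, II:11634124-11634533, had a relative signal of 3.86 in replicate 3 and 4.89 in replicate 4, or 4.38 ± 0.727 (SD, n = 2), at rank 400. The -1648 peak, II:11635052-11635461, had 4.31 in replicate 3 and 4.91 in replicate 4, or 4.61 ± 0.425 (SD, n = 2), at rank 406. The -2301 peak, II:11635705-11636114, had 4.30 in replicate 3 and 4.52 in replicate 4, or 4.41 ± 0.158 (SD, n = 2), at rank 432. These 3 neighbours were alike in height: their means differ by less than the SD of the -720 peak alone. All 3 had an authors' q-value of 0.000674.

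The farthest upstream peak, -3237 at II:11636641-11637050, was the weakest of the 6, at rank 1842. It had 1.63 in replicate 3 and 2.36 in replicate 4, or 1.99 ± 0.515 (SD, n = 2), with an authors' q-value of 0.0415. Replicate 3 placed it at rank 3628, outside its own 2095 strongest regions. None of the 4 upstream summits lay in another protein-coding gene or in the window of one, and din-1 was the nearest protein-coding start for each.

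The internal group lay around the start of F07A11.6d.1, a short transcript that begins 13531 bp into the gene. The +13549 summit, II:11619855-11620264, was 18 bp downstream of that start, in the 5′ UTR of its exon 1, and had rank 959 and a pooled relative signal of 3.20. The +13346 summit, II:11620058-11620467, was at -185 bp from the same start, with rank 1248 and 2.81 in the pooled list. Both summits also lay in intron 16 of the longest transcript, F07A11.6a.1. The 2 peak intervals overlap by 207 bp, and the same strongest replicate regions overlap both: 2.60 in replicate 3 and 3.83 in replicate 4, or 3.22 ± 0.867 (SD, n = 2). Replicate 4 had 1 region there and replicate 3 had 2, the weaker at 1.41, so the pair may be counted as 1 site or 2.

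Within the gene, the strongest pooled region below the threshold was at +654, with a relative signal of 2.09 and rank 2175, just under the weakest thresholded level of 2.13. Near +14210 and +15652 the replicates were unlike. Replicate 4 had regions of 2.29 and 2.13 there, at ranks 1729 and 2017, and replicate 3 had 0.917 and 1.18. The -3237 peak at 2.27 was the weakest thresholded one. Nothing else nearby passed the threshold: the next thresholded summit lay 37521 bp outside the window.

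**Figure D3:**
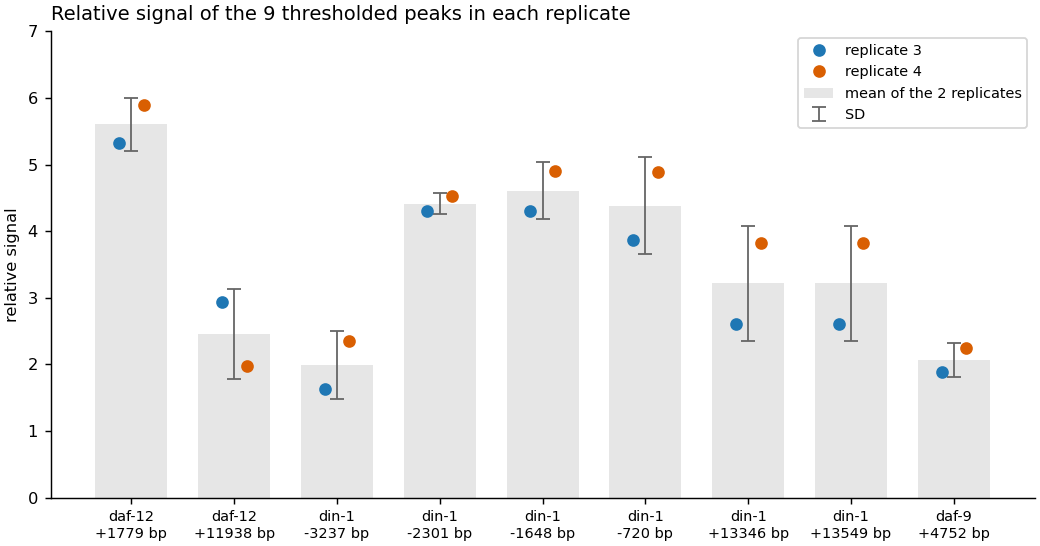
Relative signal (y axis) of the 9 thresholded peaks (x axis, named by gene and summit distance) in replicate 3 and replicate 4, with bars for the mean and whiskers for the SD (n = 2). Replicate 4 is the higher one at 8 of 9 peaks, and the pair of internal din-1 peaks, which share their replicate regions, has the widest spread, 0.867.

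The gene for the last enzyme of hormone synthesis, daf-9 (WBGene00000905, X:6196927-6200823, plus strand), had its 1 peak at +4752, X:6201474-6201883. The summit is past the 3′ end of daf-9 and short of the 3′ end of its neighbour bca-1, a carbonic anhydrase gene on the opposite strand. The peak was among the weakest of the thresholded list, rank 2002 of 2095, with an authors' q-value of 0.0572. Its relative signal was 1.88 in replicate 3 and 2.24 in replicate 4, or 2.06 ± 0.254 (SD, n = 2), and 2.18 in the pooled list. Replicate 3 placed it at rank 2514, outside its own 2095 strongest regions, so that replicate alone gave daf-9 no peak. The nearest protein-coding start was that of bca-1, 3067 bp away, and the peak counts by the same rule for bca-1 and mtp-18 as well.

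Inside daf-9 and upstream of it no region passed. The strongest region below the threshold was at +3343, with a relative signal of 1.56 and rank 4251 in the pooled list. Replicate 3 had a region of 1.86 at +3611, rank 2607, nearly the level of its region at the +4752 peak, 1.88. The nearest region of replicate 4, at +3361, had 0.847. The 1 candidate region upstream of the start was found in replicate 4 alone, at 1.12. The next thresholded summit, 5952 bp outside the window, was much stronger, at 7.30 and rank 154.

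The gene for the first enzyme, daf-36 (WBGene00007536, V:10223513-10225710, minus strand), had no peak. Its 1 pooled candidate region, at +1032, had a relative signal of 0.852 and rank 22068 of 30000. Replicate 3 had 1 region, at 0.920, and replicate 4 had 4, of which the strongest reached 1.05. These values are at or near the level of a middling candidate region, and the nearest thresholded summit lay 15556 bp outside the window.

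By rank the 9 peaks spread over most of the thresholded list, as the plot of rank against signal shows. The replicates had been scaled to their own medians, and replicate 4 gave the higher relative signal at 8 of the 9 peaks, against 54.0% of the 2091 thresholded peaks with a region in both replicates. The SD between replicates at the 9 peaks ran from 0.158 to 0.867 with a median of 0.515, against a median of 0.425 over those 2091. The internal din-1 pair counts as 2 of the 8 with the same replicate regions. The exception among the 9 was daf-12 +11938, where replicate 3 was higher.

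**Figure D4:**
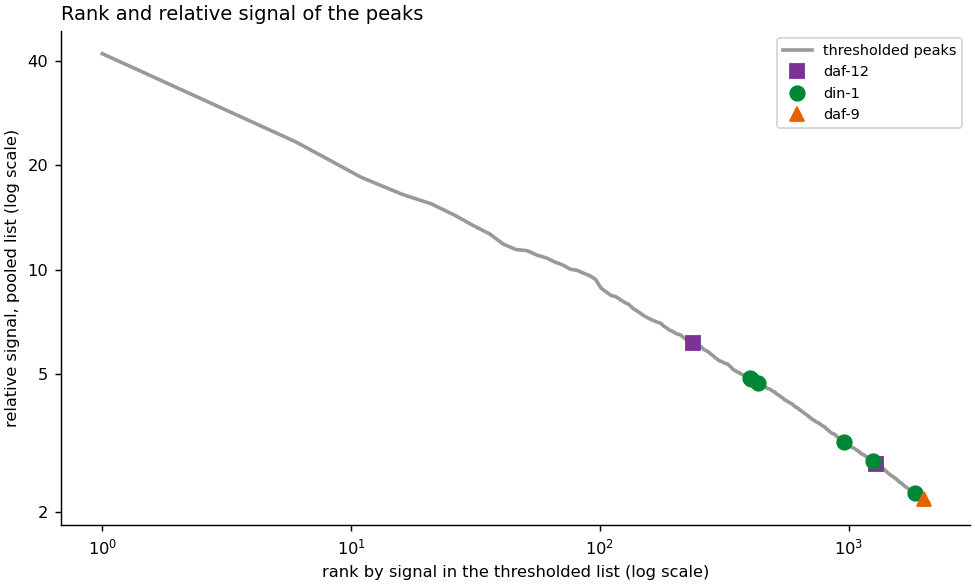
Relative signal in the pooled list (y axis, log scale) by rank in the thresholded list (x axis, log scale) for thresholded peaks (grey line, 1 rank in 5) and the 9 peaks of daf-12, din-1 and daf-9. The daf-12 +1779 peak at rank 236 and 3 din-1 peaks at ranks 400 to 432 stand in the upper part of the list, and daf-9 at rank 2002 near its end.

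Non-coding RNA genes lay under 4 of the 9 summits, all at din-1, against 290 of all 2095 (13.8%). A snoRNA gene, whose product guides chemical modification of other RNAs, held 3 of the 9, against 21 of all 2095 (1.00%). Both the 4 and the 3 include the overlapping internal pair, which may be counted as 1 site. The -1648 summit was 32 bp into ZK20.9 (II:11635225-11635327, plus strand, 103 bp). Both internal summits were inside F07A11.15 (II:11620025-11620295, plus strand, 271 bp), and the +13549 summit also lay in the ncRNA gene F07A11.10. The -720 summit was 5 bp into the ncRNA gene ZK20.8 (II:11634196-11634334, minus strand, 139 bp). Whether these RNA genes or din-1 go with the signal was not tested.

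The windows of 301 bp around the summits were rich in G and C. At 6 of the 9 the GC content was above 50%, against 14.1% of all thresholded windows, whose median was 41.9% in a genome of 35.4%. The 6 include the overlapping internal din-1 pair. It reached 59.8% at din-1 +13549 and 57.8% at din-1 +13346, both above the 95th percentile of all windows, 54.5%, and was lowest at daf-9 +4752, 35.9%. GC content can bear on the recovery of fragments in sequencing, and its part in the signal was not tested.

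The DAF-12 hexamers were searched on both strands of these windows, of which those of the internal din-1 pair overlap. AGTGCA was in 3 of the 9, daf-12 +1779, din-1 -3237 and din-1 +13549, against 13.4% of all 2095 windows of that length. AGGACA was in 2 of the 9, din-1 -3237 and daf-9 +4752, against 11.0% of all windows. The din-1 -3237 window, the weakest at that gene, was the one that held both. Among the other hexamers searched, GAGAGA was in 6 of the 9 windows, against 43.9% of all, and had 17 overlapping matches at din-1 -2301, a number that 18 of the 2095 windows reached. TGATAA, the core letters of GATA factor sites, was in 2 of 9 windows and 20.3% of all, and the E-box CACCTG in 2 of 9 and 6.21% of all. A match is only a run of letters and says nothing about the factor.

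Genes with the same number of peaks and the most similar window length were named for comparison. For din-1 these were let-526, which encodes an ARID subunit of the SWI/SNF chromatin remodeller, lit-1, a Nemo-like kinase of Wnt signalling, and sma-9, a Schnurri homologue of TGF-beta signalling, out of 9 other genes with 6 peaks. Their strongest peaks had relative signals of 6.03, 3.43 and 5.36 in the pooled list, against 4.87 at din-1. For daf-12 they were Y48C3A.5, crh-1, the CREB homologue, and kin-1, the catalytic subunit of protein kinase A, out of 679 genes. Their strongest peaks had 2.22, 2.88 and 4.40, all below the 6.15 of daf-12.

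The window of daf-12, 35968 bp, is longer than that of all but 1 of the 269 genes with an nhr- name, which hold most other nuclear hormone receptors, so it had more room for peaks. Of those genes 34 (12.6%) had a peak, against 18.8% of all protein-coding genes. In all, 11 of the 269 had 2 or more, against 4.67% of all protein-coding genes. The 11 were nhr-3, nhr-14, nhr-17, nhr-19, nhr-21, nhr-40, nhr-48, nhr-85, nhr-88, nhr-91 and nhr-105. The strongest peaks of nhr-17 and nhr-88 had pooled relative signals of 11.3 and 8.49, above the 6.15 of daf-12, and those of the other 9 were between 2.27 and 5.43. Among the 116 protein-coding genes with windows over 30000 bp, the class of daf-12, 29.3% had a peak and 8.62% had 2 or more. Among the 288 genes with windows of 20000 to 30000 bp, the class of din-1, 30.6% had a peak and 4 genes had 6 or more.

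In the wider hormone pathway, peaks were found at all 4 let-7 family microRNA genes and all 4 timing genes searched, at 4 of 7 genes of the TGF-beta branch, at 2 of 8 of the insulin branch and at 1 of 7 further genes of hormone synthesis and sterol supply. This list of genes was also made with earlier results of these data known. Of its 30 protein-coding genes beyond the 4, 11 (36.7%) had a peak, against the 18.8% of all such genes, and 2 had one within 500 bp of the start. Without 4 timing genes under microRNA control, 7 of 26 (26.9%) had one.

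In hormone synthesis and sterol supply, 1 of 7 further genes had a peak. This was emb-8, which encodes the reductase that supplies electrons to cytochrome P450 enzymes, with 2.68 in replicate 3 and 2.83 in replicate 4, or 2.75 ± 0.108 (SD, n = 2), 3180 bp upstream of its start. The genes dhs-16 and hsd-1, which encode dehydrogenases, strm-1, a sterol methyltransferase, ncr-1 and ncr-2, Niemann-Pick C1 homologues, and the receptor gene nhr-8 had none. The strongest pooled candidate of those 6 was 1.35 at ncr-1, and strm-1 had no candidate region at all.

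The TGF-beta branch, which acts upstream of the hormone, had peaks at 4 of 7 genes. They were the receptor gene daf-4, the Smad genes daf-14 and daf-3, and daf-5, a Sno/Ski homologue. The strongest daf-5 peak, one of 3, had 4.58 in replicate 3 and 4.46 in replicate 4, or 4.52 ± 0.0901 (SD, n = 2), at +11884 inside the gene. The daf-14 peak had 3.77 ± 0.116 and the daf-4 peak 3.25 ± 0.766 (SD, n = 2 each). The daf-3 peak was weak, 2.05 ± 0.536 (SD, n = 2), and lay nearer the start of wdr-54 than that of daf-3. The ligand gene daf-7, the receptor gene daf-1 and the Smad gene daf-8 had none, with strongest pooled regions of 0.988, 1.85 and 1.45.

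In the insulin branch 2 of 8 genes had peaks, the kinase gene pdk-1 and daf-16, which encodes the FOXO transcription factor. The stronger of the 2 pdk-1 peaks had 3.13 ± 0.278, and the daf-16 peak, 19400 bp downstream of its most 5′ start, had 3.15 ± 0.940 (SD, n = 2 each), with 2.48 in replicate 3 and 3.81 in replicate 4. The daf-16 peak lay inside the gene, but the most 5′ start of another protein-coding gene was nearer than that of daf-16, 12992 bp away. Later starts of daf-16 were not compared. The receptor gene daf-2 had none in a window of 51333 bp, and its strongest pooled region had 1.77. Among daf-28, age-1, akt-1, akt-2 and daf-18, which had none, akt-2 came nearest with 2.10. No peak was found at the 4 other dauer genes searched, daf-11, daf-22, daf-6 and daf-10, where the strongest pooled regions were at 1.03 or below.

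All 4 microRNA genes of the let-7 family had a peak by the same rule, against 30.7% of the 261 microRNA precursor genes. The mir-48 and mir-241 genes are neighbours on chromosome V and share the same 3 peaks. The strongest of those had 5.01 in replicate 3 and 5.61 in replicate 4, or 5.31 ± 0.423 (SD, n = 2), at rank 294. That is close to the daf-12 +1779 peak at 5.61 ± 0.397, a difference smaller than either SD. The peak of mir-84 had 2.54 ± 0.286, and that of let-7 had 3.04 ± 0.850 (SD, n = 2 each), but the let-7 peak lay 114 bp from the start of the protein-coding gene C05G5.2.

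The 4 timing genes under microRNA control all had peaks. They were hbl-1, a Hunchback-like factor, lin-28 and lin-41, which encode RNA-binding proteins, and lin-14, a nuclear regulator of larval stage. The strongest lin-28 peak lay 479 bp upstream of the start, with 4.31 in replicate 3 and 4.25 in replicate 4, or 4.28 ± 0.0437 (SD, n = 2). The lin-41 peak had 3.91 ± 0.0721, the strongest of the 4 lin-14 peaks 2.79 ± 0.737 and the hbl-1 peak 2.10 ± 0.616 (SD, n = 2 each). The lin-28 and lin-41 values thus stood near those of the 3 stronger upstream din-1 peaks, and hbl-1 near that of daf-9.

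**Figure D5:**
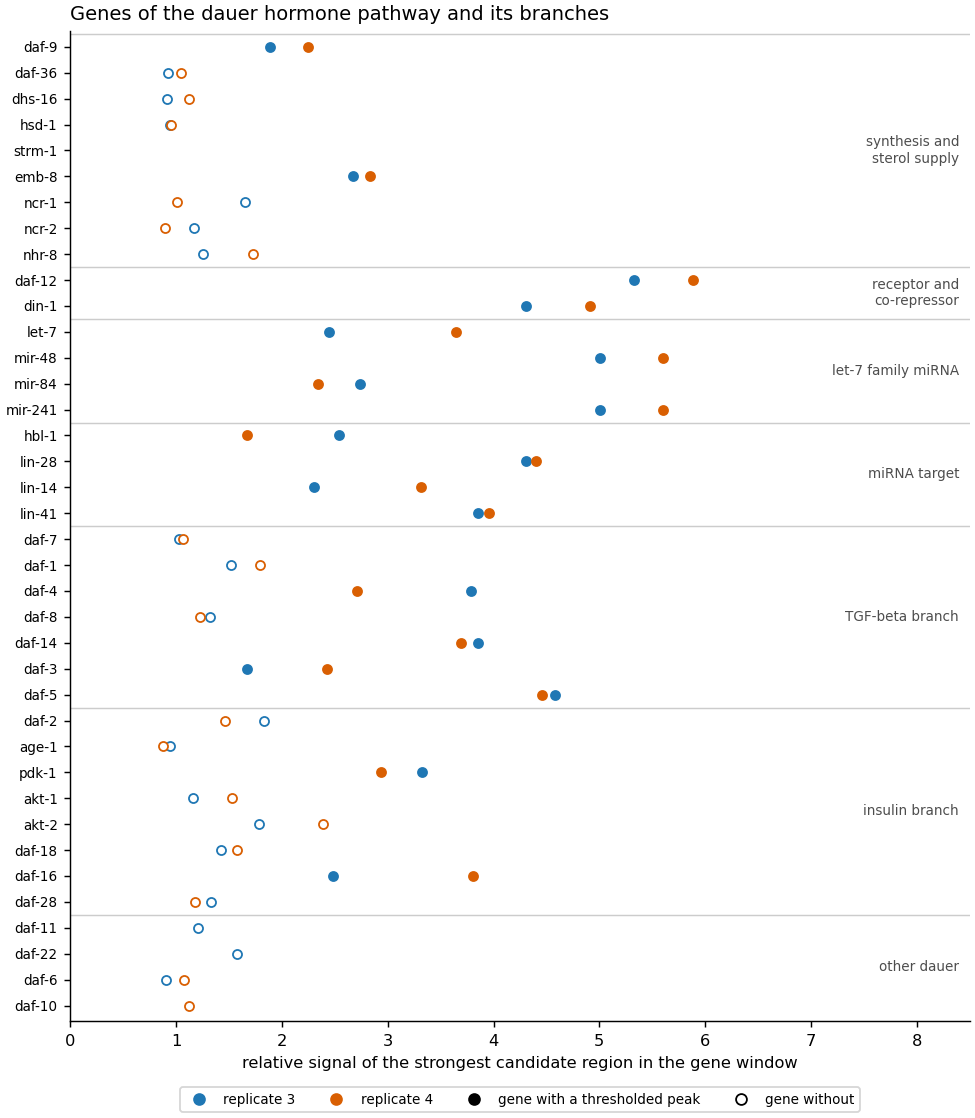
Relative signal (x axis) of the strongest candidate region in each gene window, in replicate 3 and replicate 4, for the 38 genes of the pathway by role (y axis), filled where the gene has a thresholded peak. The values of daf-12 and of the mir-48 and mir-241 pair are the highest, 5.01 or more in both replicates, and daf-36, dhs-16 and hsd-1 sit near 1.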

How the data were processed

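The deposited lists for ce11 hold regions of ChIP-seq enrichment: 30000 candidate regions for each replicate and for both pooled, and 2095 that passed the authors' irreproducible discovery rate threshold, per the labels. No header or label names the aligner or peak caller (not given in the sources used here), and read depth is unknown. The authors gave each region a signal on a scale that is not stated, a −log10 q-value, and the offset of its summit, which lay mid-region for 90.4% of thresholded peaks. Lists for ce10 were not used.

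Genes came from Ensembl release 115 (WBcel235). Relative signal, replicate matching (overlap of at least 1 bp), counts of peaks per gene and hexamers were computed with Python 3.11.15, pandas 2.3.3 and numpy 2.4.6, and drawn with matplotlib 3.10.9; the counting was tested on simulated data. The genes, gene lists and hexamers were chosen with earlier results of these data known. Named genes are the 4, listed pathway genes with a peak, genes sharing a peak, nhr- genes with at least 2 peaks, and the 3 genes most like daf-12 or din-1 in peak number and window length. Pathway genes without a peak were also named, to complete the list. The q-values were used only to describe and filter peaks. No test was made. Alternatives were stricter thresholds, other windows and assignments, other list scalings and each replicate alone.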

Additional observations from a re-analysis of the deposited data

How the results depend on the processing

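With peaks of above-median signal, or of a q-value of 0.01 or below, daf-12 had 1 peak in place of 2, and daf-9 had 0 in place of 1. With summits within 5000 bp of the start only, daf-12 had 1, and assignment to the nearest protein-coding start gave 1 at daf-12 and 0 at daf-9. The daf-12 start was the nearest to both daf-12 summits, at 1779 and 11938 bp. The lower count at daf-12 thus does not mean that a peak lay nearer another gene's start. This setting left out 1 of the 2 by a further condition, so its counts, also over all genes, are not those of nearest start alone. With a reach of 2000 bp around the gene's start, daf-9 had 0. Genes with a peak numbered 2231 with above-median peaks, 2301 with the 2000 bp reach and 1607 by nearest start, against 3756. Each replicate alone gave 2 to 3 peaks at daf-12, 4 to 8 at din-1, 0 to 1 at daf-9 (0 in replicate 3) and 0 at daf-36. These were not always the same regions. At daf-12, replicate 4 had +1790 and +4928, while its region at the +11938 peak, at rank 2346, fell short. Replicate 3 had +1652 and +1856, both under the +1779 peak, and +11909. Over all these settings and overlap by interval, din-1 had at least 4 peaks and daf-36 had none. The 2095 strongest pooled regions are the thresholded peaks themselves, so counting those instead could not change a number.

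Relative signals moved by more than the spread between replicates at 2 of 9 peaks in the pooled list and at 1 of 9, daf-12 +1779, to 4.72, with the nearest replicate summit. Division by the median of the 2095 strongest regions lowers all 9 by construction. A required cover of 0.5 of the peak by the replicate region gave 8 of the 9 values, none of which moved, and no value for daf-12 +11938. No paired analysis was possible because the study has a single group. With 2 replicates and unknown depth, differences between peaks of similar height cannot be resolved.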
